A study of Homo sapiens with 6 samples.

Results

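Potassium channel genes were taken as the symbols beginning with KCN and a further letter whose mean deposited TPM (a level scaled for gene length and library total) over 6 libraries was at least 0.5. Of 18056 genes listed, 92 had such a symbol and 69 reached the level, so the members were chosen by their level over both groups together and their levels are given as a description. The libraries came from human forebrain organoids, wild type, grown from the induced pluripotent stem cell line DYR0100 by a dorsal forebrain protocol, in 1 labelled batch. In 3 libraries the organoids had received vehicle, and in 3 they had received 5 µM Aβ42, the aggregation-prone amyloid-β peptide, in an exposure of 6 days. All libraries share this 1 line, so nothing here separates the line from organoids in general, and the design text calls the replicates independent without saying whether organoids were pooled.

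Potassium channels let potassium ions leave a cell along their gradient, which brings the membrane back to rest after a spike and sets how easily the next one starts. Voltage-gated (Kv) channels open on depolarisation, inward rectifiers (Kir) hold the resting potential, tandem-pore (K2P) channels carry the background leak, and calcium- or sodium-activated channels open when those ions enter. Auxiliary subunits have no pore of their own and change the gating or traffic of channels they bind. In developing cortex these genes are known from both neurons and radial glia.

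Pore-forming members and auxiliary subunits differ in their coding sequence. A short stretch of the pore, the selectivity filter, holds 3 codons in a row for glycine, an aromatic residue in most channels, and glycine, and each gene's longest coding transcript in GENCODE v29 (GRCh38, the build named in the submitters' processing notes) was searched for threonine or serine, any residue, glycine, then tyrosine, phenylalanine or leucine, then glycine. All 8 K2P members held 2 matches, all 10 Kir and all 6 calcium- or sodium-activated members held 1, 29 of 30 Kv members held 1, and all 15 auxiliary members held 0. The remaining Kv member, KCNH2, held 2. The number of matches thus set auxiliary members apart from all others and K2P members from all but KCNH2, and did not separate the other classes. The middle codon of the last match was TAC or TAT in 37 of the 54 members with a pore and TTC or TTT in 15, the latter including all 6 EAG-family Kv members and both members that form ATP-sensitive channels (KCNJ8 and KCNJ11). The stretches below are from members of each pore class whose values are described in full, with 1 K2P gene for its pair of filters. The 3 filter codons are in capitals, and all lie in coding exons.
KCNJ4: cagacgaccatcGGCTATGGGttccggtgc
KCNC4: atgacgacactgGGCTACGGAgacatgtac
KCNA1: atgaccactgtaGGATACGGTgacatgtac
KCNH1: ctcaccagtgtgGGCTTTGGGaacatcgcc
KCNH2: ctcaccagtgtgGGCTTCGGCaacgtctct
KCNN3: ttcctttccattGGTTATGGGgacatggtg
KCNK2 (first): attacaaccataGGATTTGGAaacatctca
KCNK2 (second): ctaacaactattGGATTTGGTgactacgtt
These runs lie at chr22:38427710-38427739 (minus strand, exon 2 of 2) for KCNJ4, chr1:110223585-110223614 (plus, exon 2 of 4) for KCNC4, chr12:4912486-4912515 (plus, exon 2 of 2) for KCNA1, chr1:210919692-210919721 (minus, exon 7 of 11) for KCNH1, chr7:150951500-150951529 (minus, exon 7 of 15) for KCNH2 and chr1:154733051-154733080 (minus, exon 5 of 9) for KCNN3. The first run of KCNK2 crosses the junction of exons 3 and 4 (chr1:215124738-215169215, plus), while the second run of KCNK2 lies in exon 5 of 7 (chr1:215172150-215172179, plus). KCNH2 held a second match upstream of the printed one, with CTG as its middle codon. KCNH1 (TTT) and KCNH2 (TTC) both encode phenylalanine at the middle of the printed filter, and their fold changes had opposite signs (below).

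By mean TPM over the 6 libraries, KCNQ3 was at 81.6, the highest of the members named here. It encodes a subunit of the M-channel, a slow Kv channel that restrains repetitive firing. Below it came KCNJ4 (35.4), KCNT2 (31.9), KCNMB4 (26.2), KCNG1 (25.8), KCNK2 (24.2) and KCNIP1 (24.2), and the ranges over libraries of neighbours in this order overlapped except between KCNQ3 and KCNJ4 and between KCNT2 and KCNMB4. The summed TPM of all 69 members was 836.3 to 854.8 in vehicle and 818.1 to 835.5 with Aβ42, ranges that nearly touch. The classes did not move together. The Kv sum was lower with Aβ42 (481.1 to 492.0 and 462.5 to 470.3), the Kir sum was higher (88.0 to 92.8 and 95.3 to 103.4), and those of the remaining classes overlapped. Within Kv the KCNQ family held the largest sum, at 256.07 to 275.6 in vehicle and 235.68 to 245.69 with Aβ42. The Shal sum was also lower (20.66 to 23.85 and 18.39 to 20.41). The Shaker sum was higher (42.77 to 45.19 and 46.02 to 48.72), and the other Kv families overlapped. From counts, 19 of 29 tested Kv members had fold changes above 0, so the lower Kv sum does not describe most Kv members. In TPM the groups did not overlap for 18.6% of all genes lower and 9.0% higher, so a lower sum is not particular to these members. At the low end, the members just inside the level were KCNS3 (0.502), KCNT1 (0.538) and KCNK4 (0.548), and the genes just outside were KCNH4 (0.450), KCNV2 (0.388) and KCNS2 (0.358).

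**Figure D1:**
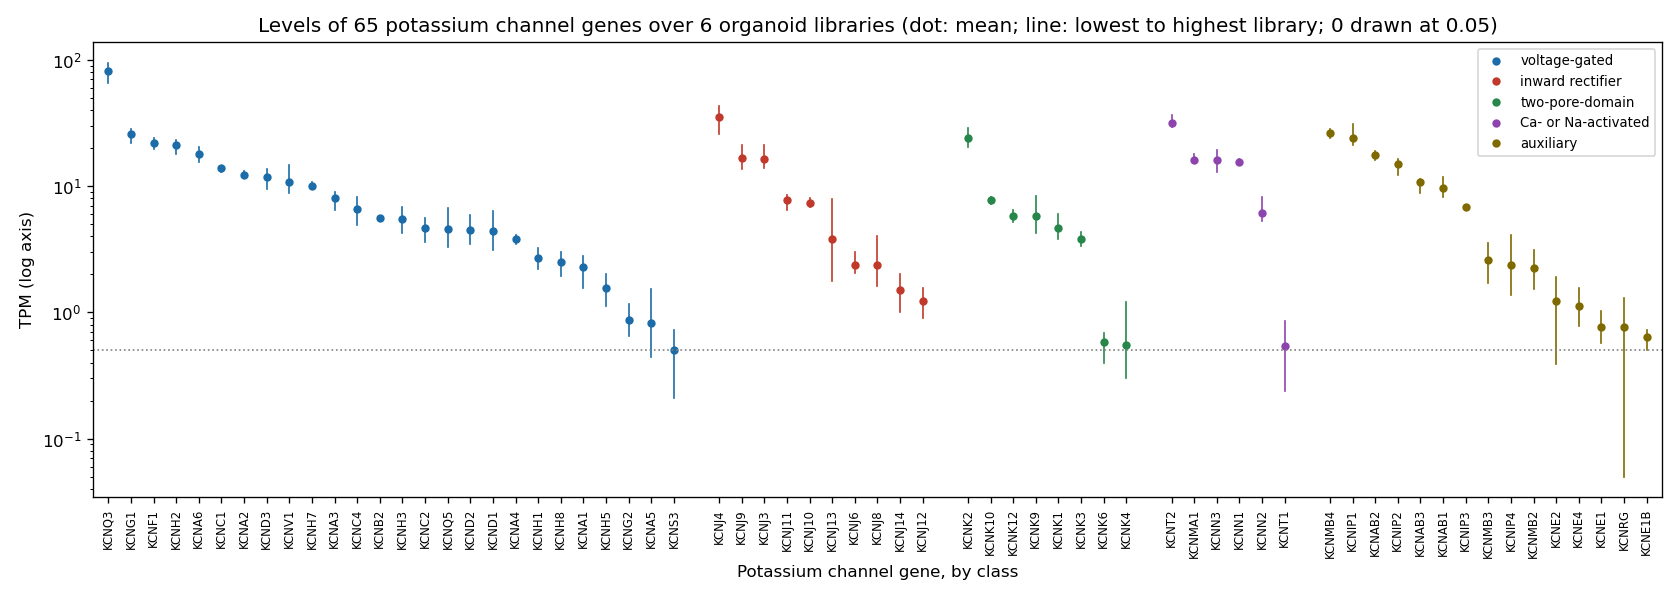
Levels of 65 of the 69 members on a log axis in TPM, grouped by channel class and ordered by mean; the dot is the mean of 6 libraries and the line runs from the lowest to the highest library, with the dotted line at 0.5. KCNQ3 (81.6) lies above all others shown, and KCNRG reaches 0 in 1 library.

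The cell types behind these levels were read from marker lists. All 15 pan-neuronal, all 15 radial glia and all 12 excitatory neuron markers had enough counts to test, so the defining markers of the labelled tissue were present. Of 14 microglia markers 1 could be tested, and TREM2, TYROBP and the C1Q genes were listed at 0 in all 6 libraries (0 allows up to 3 counts per library). Marker levels differed between groups: summed TPM of 15 proliferation markers was 612.0 to 727.6 in vehicle and 390.9 to 560.1 with Aβ42, and of 12 intermediate progenitor markers 490.6 to 554.7 and 355.6 to 410.4. The pan-neuronal sum was 6205 to 6574 and 5913 to 6069, and the excitatory neuron sum 2097 to 2170 and 1888 to 2012. Sums of the other cell type lists overlapped. All genes leaned lower in TPM (18.6% without overlap lower, 9.0% higher). From counts the median log2 fold change of pan-neuronal markers was 0.0044 (8 above 0 and 7 below). At an unadjusted p-value under 0.05, 12.4% of all genes tested were higher and 11.5% lower. At that level 13 of 15 proliferation and 10 of 12 intermediate progenitor markers were lower and 0 higher. Of 15 pan-neuronal markers 4 were lower and 3 higher, and of 15 radial glia markers 3 were lower and 2 higher. Among 14 astrocyte markers tested 2 were lower and 1 higher, among 12 excitatory neuron markers 3 and 0, among 13 choroid plexus markers 1 and 1, among 8 inhibitory neuron markers 0 and 0, among 5 oligodendrocyte lineage markers 1 and 0, and among 10 endothelial and mural markers 0 and 1. In either direction these were 86.7% of proliferation, 83.3% of intermediate progenitor, 46.7% of pan-neuronal and 33.3% of radial glia markers, against 23.9% of all genes. The shares of the other lists just given ran from 0% to 25%, near or below that of all genes. With the replicate number as a block, 7.12% of all genes were higher and 7.05% lower at an adjusted p-value under 0.05. There choroid plexus markers were 5 lower and 0 higher, astrocyte markers 5 and 1, proliferation markers 13 and 0, intermediate progenitor markers 8 and 0, and pan-neuronal, radial glia and excitatory neuron markers 3 lower each and 1, 0 and 1 higher. In bulk libraries fewer cells of a type and less RNA per cell cannot be told apart, and the part of these shifts in the channel values was not tested.

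The 2 groups' estimated counts were set against each other by the quasi-likelihood test of edgeR, and values per library are given below as CPM (counts scaled to TMM-normalised library size, not to gene length), with log2 fold changes of Aβ42 over vehicle and their standard error (SE). Of the 69 members, 65 had enough counts to test. None passed an adjusted p-value of 0.05, as was the case for 0 of 13842 genes tested (0.0%). An unadjusted p-value under 0.05 was reached by 14 of 65 members (21.5%), 8 higher and 6 lower, against 23.9% of all genes (12.4% higher, 11.5% lower). On the log2(TPM + 1) scale in limma 4 members were higher and 7 lower (7.7% and 16.1% of all genes), and on the log2(TPM + 0.1) scale 4 and 8 (7.63% and 16.1%), scales on which the median of all genes also lay below 0. The CPM values of the groups did not overlap for 10 members higher (15.4%, against 13.6% of all genes) and 4 lower (6.15%, against 13.4%). In TPM they did not overlap for 6 higher and 6 lower (9.23% each, against 9.0% and 18.6%). More members were thus higher than lower in CPM and equal numbers in TPM, a scale on which all genes leaned lower. The labels do not state that replicate numbers pair the libraries. The numbers were taken as pairs from these same data, and the fit with the number as a block, given too, rests on that assumption. With it 10 of 65 members passed (15.4%), 6 higher and 4 lower, against 14.2% of all genes (7.12% higher, 7.05% lower). The shares past an unadjusted p-value and past the block's threshold are near those of all genes, and the share without overlap and lower is below that of all genes on both scales, a difference that was not tested. The median log2 fold change was 0.04 over members and 0.0032 over all genes. Without Aβ42 replicate 2, 18 of 66 members passed (12 higher, 6 lower), against 23.1% of all genes (11.5% higher, 11.6% lower); without any other single library 0 did. By DESeq2 5 members passed (5.81% of all genes), with no filter on low counts 3 (2.07%), and by limma-voom with sample quality weights 13 (18.4%). The unadjusted count of 14 became 9 without Aβ42 replicate 3 (13.4% of all genes) and 23 without Aβ42 replicate 2 (37.0%), and it was 24 with the block (29.3%) and 22 by limma-voom with sample quality weights (34.7%).

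The class medians of the fold changes ran from -0.09 (auxiliary) to 0.10 (K2P). The median was 0.07 over 29 tested Kv members (19 above 0 and 10 below), 0.09 over 10 Kir members (5 and 5), 0.10 over 7 K2P members (5 and 2), -0.03 over 6 calcium- or sodium-activated members (3 and 3) and -0.09 over 13 auxiliary members (4 and 9). Members with an unadjusted p-value under 0.05 were 10 Kv (6 higher, 4 lower), 3 Kir (2 higher, 1 lower), 1 calcium-activated (lower) and 0 of the K2P and auxiliary members. These were 34.5% of Kv, 30% of Kir and 16.7% of calcium- or sodium-activated members tested, against 23.9% of all genes. With the block the passing members were 7 Kv (4 higher, 3 lower), 2 Kir (both higher) and 1 calcium-activated (lower). Those shares were 24.1%, 20% and 16.7% of the class, against 14.2% of all genes. Differences between classes were not tested. The medians rest on few genes: leaving out single libraries took that of Kir from 0.0531 (without vehicle replicate 3) to 0.2057 (without vehicle replicate 1), that of the auxiliary class to -0.005 (without Aβ42 replicate 3) and -0.013 (without vehicle replicate 1), that of K2P to 0.0632 (without vehicle replicate 2) and that of the calcium- or sodium-activated class above 0 (0.0026 without vehicle replicate 1). Of the 65 tested members, 16 had a fold change whose sign turned when 1 library was left out, and none of these passed with the block.

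**Figure D2:**
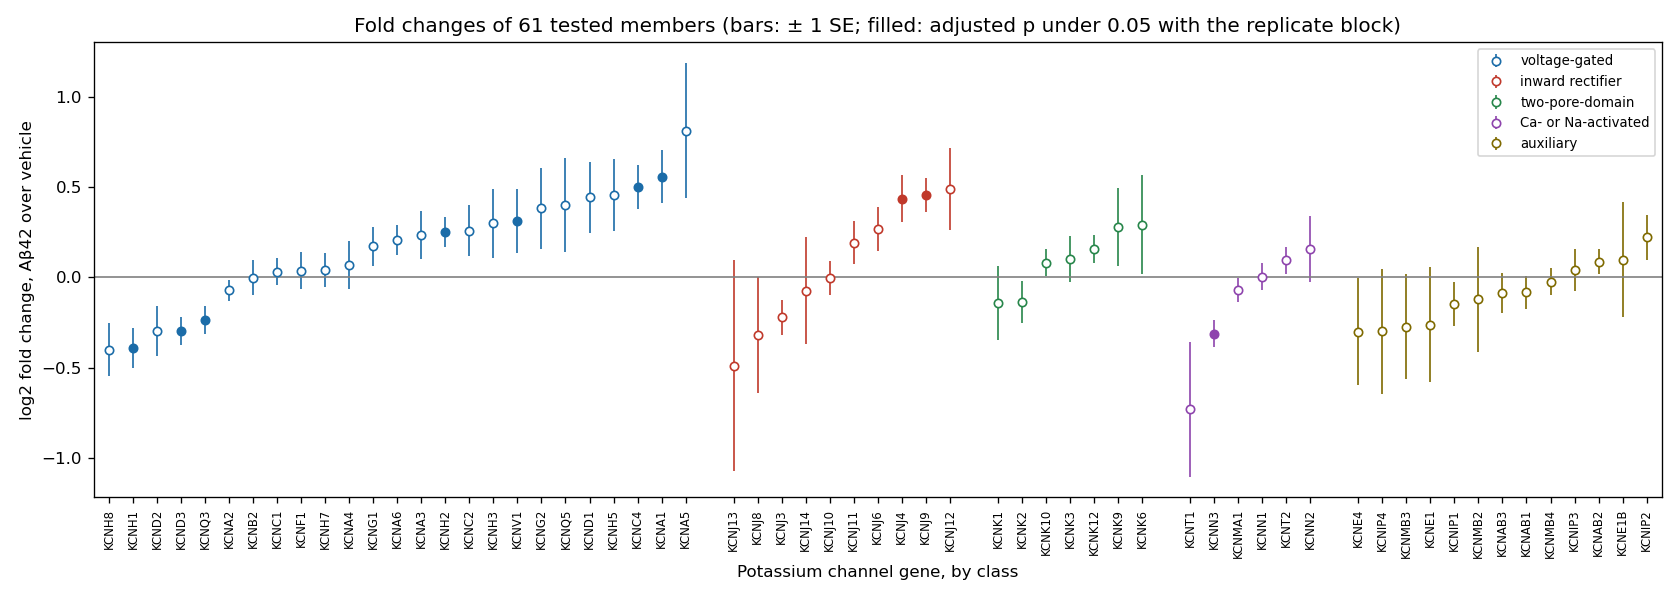
Log2 fold change of Aβ42 over vehicle for 61 of the 65 tested members, grouped by class and ordered within it; bars are 1 SE to each side and filled points had an adjusted p-value under 0.05 with the replicate block. The 10 filled points lie in the Kv, Kir and calcium- or sodium-activated classes, 6 above 0 and 4 below.

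Among Kir genes, KCNJ9 had the smallest p-value of all members. KCNJ9 (Entrez gene ID 3765) encodes a GIRK subunit, a channel opened by G proteins downstream of inhibitory receptors. It was at 24.6, 21.7 and 22.8 CPM in vehicle replicates 1 to 3 and at 34.6, 27.5 and 32.9 CPM in Aβ42 replicates 1 to 3, so every exposed library lay above every vehicle library, with exposed replicate 2 nearest to them. The log2 fold change was 0.46 ± 0.09 (SE), with an adjusted p-value in edgeR of 0.0691 without the block and 0.00108 with it. Leaving out single libraries kept the fold change between 0.39 and 0.55.

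Of the other GIRK members, KCNJ3 lay on the opposite side of 0 and KCNJ6 on the same side. KCNJ3 (3760), the subunit that most neuronal GIRK channels contain, was at 28.96, 36.8 and 29.8 CPM in vehicle and 26.6, 29.4 and 25.9 CPM with Aβ42, and exposed replicate 2 lay inside the vehicle range. Its log2 fold change was -0.22 ± 0.10, with adjusted p-values in edgeR of 0.201 and, with the block, 0.058. It was -0.11 without vehicle replicate 2. KCNJ6 (3763), a GIRK subunit of many central neurons, was at 18.5, 17.6 and 16.53 CPM and at 24.6, 17.2 and 21.7 CPM (0.27 ± 0.12, adjusted p-value in edgeR 0.21), where exposed replicates 1 and 3 stood above all vehicle libraries and replicate 2 did not. Within-library ratios of KCNJ9 to KCNJ3 and of KCND1 to KCND3 (below) were chosen after the values were seen. In CPM the KCNJ9 to KCNJ3 ratio came to 0.851, 0.590 and 0.765 for the vehicle replicates. The exposed replicates gave 1.30, 0.935 and 1.27, with no overlap. The KCND1 to KCND3 ratio overlapped in CPM, as exposed replicate 2 (0.175) lay below vehicle replicate 2 (0.177), and did not overlap in TPM. Each pair joins genes with fold changes of opposite sign, so a shift in its ratio follows largely from the choice. No share for other pairs is given.

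Of the classical strong rectifiers, which clamp the resting potential, KCNJ4 (3761) was the Kir gene with the highest TPM. It was at 23.1, 17.8 and 22.8 CPM in vehicle and 30.8, 23.8 and 31.5 CPM with Aβ42. Both replicates numbered 2 were the lowest of their group, and the groups did not overlap, by a margin of less than 1 CPM between exposed replicate 2 and vehicle replicate 1. The log2 fold change was 0.43 ± 0.13, with an adjusted p-value in edgeR of 0.108 without the block and 0.00146 with it. KCNJ12 (3768) had 30 to 52 counts per library and went from 2.08 ± 0.467 to 2.93 ± 0.376 CPM (mean ± SD, n = 3 each; 0.49 ± 0.23, adjusted p-value in edgeR 0.217). KCNJ18, a near-identical copy, was listed at 0 counts throughout, so the level of KCNJ12 is uncertain.

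The remaining Kir members had log2 fold changes from -0.49 (KCNJ13) to 0.19 (KCNJ11). KCNJ10, the glial channel that takes up potassium around synapses, was at 14.9 to 15.4 CPM in vehicle and 14.2 to 16.6 CPM with Aβ42. KCNJ13, known from the apical membrane of choroid plexus, was at 3.42, 10.1 and 4.09 CPM and at 3.05, 7.01 and 2.46 CPM, highest in both replicates numbered 2, and its fold change ran from -1.09 (Aβ42 replicate 2 left out) to 0.15 (vehicle replicate 2 left out). Summed TPM of 15 choroid plexus markers followed the same order of libraries in part, at 3467, 7732 and 4083 in vehicle and 3743, 6796 and 2938 with Aβ42; its part in the KCNJ13 values was not tested.

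Of the Kv channels, members with the smallest p-values were split between the directions. KCNC4 (3749), a fast-activating Shaw-family channel that shortens spikes, was at 9.97, 8.21 and 10.3 CPM in vehicle and 13.8, 12.1 and 14.4 CPM with Aβ42, without overlap. The log2 fold change of KCNC4 was 0.50 ± 0.12, with adjusted p-values in edgeR of 0.0734 and, with the block, 0.00506. Of the same family, KCNC2 had a value of 0.26 and KCNC1 one of 0.03, and neither passed with the block.

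KCNA1 (3736), a Shaker-family channel of axons and terminals, was at 5.95, 4.86 and 6.95 CPM in vehicle and 9.08, 8.14 and 8.94 CPM with Aβ42, again without overlap. Its log2 fold change was 0.56 ± 0.15, with adjusted p-values in edgeR of 0.0811 and, with the block, 0.0103. Of the 6 Shaker members 5 had values above 0 and KCNA2 was at -0.07. KCNA6 was at 0.20 ± 0.08, and KCNA5, at under 2 CPM in every library, at 0.81 ± 0.37, which was 0.43 without Aβ42 replicate 2.

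Shal-family channels carry the fast transient A-type current of dendrites, and their members diverged. KCND3 (3752) was at 39.7, 40.4 and 38.4 CPM in vehicle and 30.7, 36.0 and 29.9 CPM with Aβ42, so every exposed library was lower. KCND3 had a log2 fold change of -0.29 ± 0.08, with adjusted p-values in edgeR of 0.0822 and, with the block, 0.011. KCND2 was at -0.30 ± 0.14 with overlapping groups. KCND1 was at 6.07, 7.17 and 5.43 CPM in vehicle and 8.29, 6.29 and 10.8 CPM with Aβ42, a log2 fold change of 0.44 ± 0.19, where exposed replicate 2 lay within the vehicle range. The counts of KCND3 were not whole in every library, so some of its reads could have been divided with another feature.

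EAG-family channels open slowly or recover with delay and set firing thresholds. KCNH1 (3756) was at 9.97, 10.3 and 9.33 CPM in vehicle and 7.19, 7.84 and 7.50 CPM with Aβ42, a log2 fold change of -0.39 ± 0.11 without overlap (adjusted p-value in edgeR 0.0891, with the block 0.0358). KCNH2 (3757), the hERG channel best known from cardiac repolarisation, was at 29.9, 24.9 and 25.4 CPM and at 33.0, 31.1 and 31.4 CPM. Its exposed libraries lay above the vehicle ones, with vehicle replicate 1 close below, and the log2 fold change was 0.25 ± 0.08 (adjusted p-value in edgeR 0.115, with the block 0.0286). On the TPM scale the KCNH2 groups overlapped. KCNH8 had a value of -0.40 ± 0.15 with no overlap, KCNH5 of 0.45 ± 0.20 and KCNH3 of 0.30 ± 0.19, none of which passed with the block, and KCNH7 was at 0.04.

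**Figure D3:**
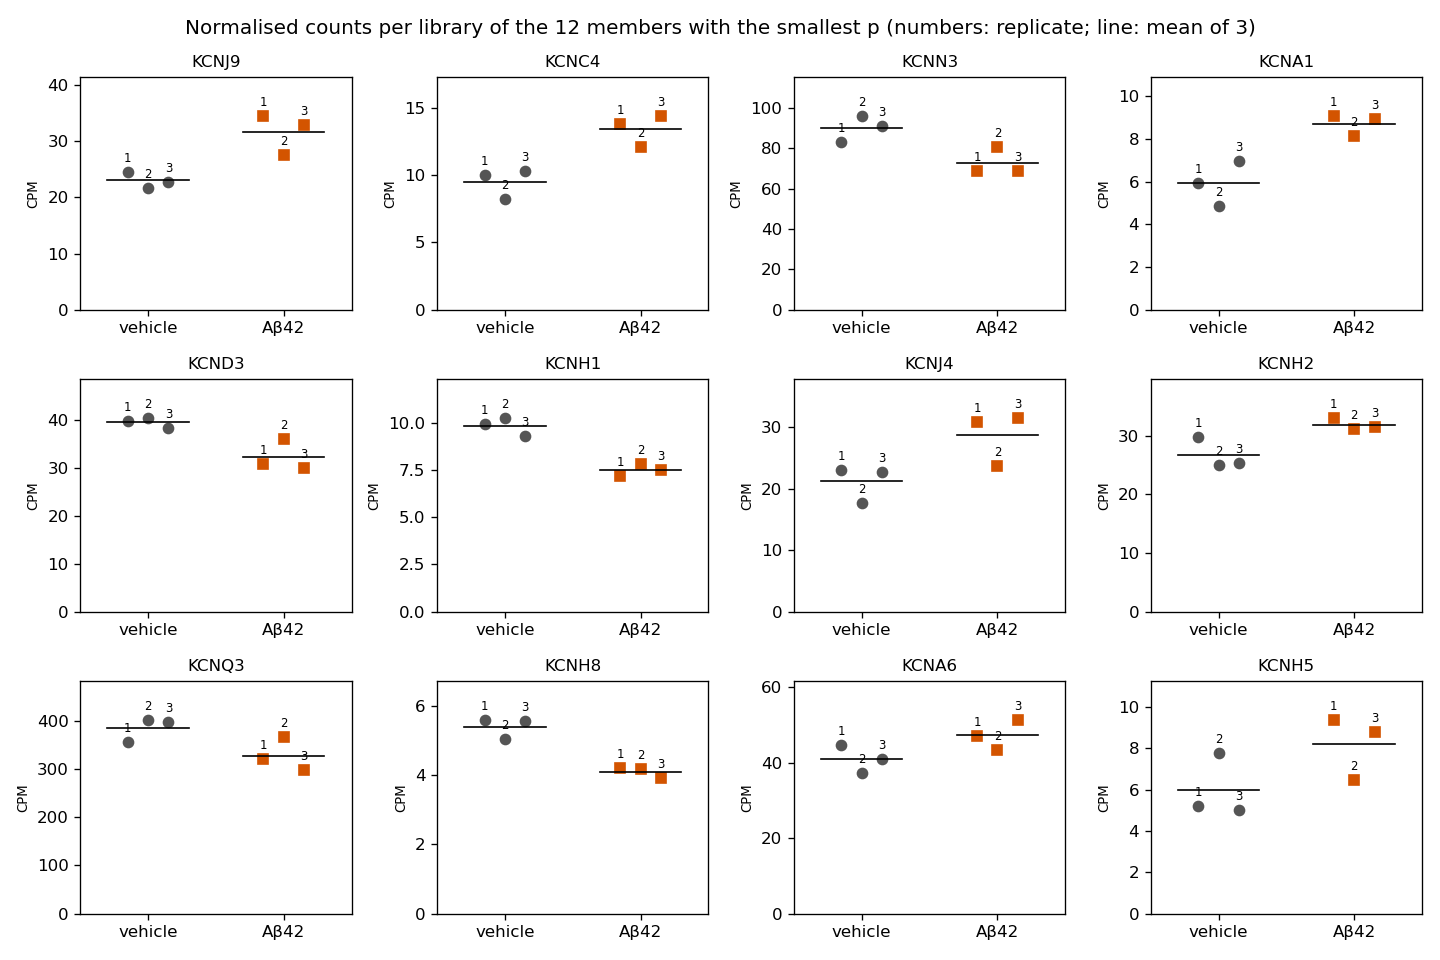
CPM per library for the 12 members with the smallest p-values, with vehicle as circles, Aβ42 as squares, the replicate number beside each point and a line at the mean of 3. KCNJ9, KCNC4, KCNA1, KCNJ4 and KCNH2 lie higher and KCNN3, KCND3, KCNH1 and KCNH8 lower in all exposed libraries, and KCNQ3, KCNA6 and KCNH5 overlap between groups.

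Of the KCNQ family, KCNQ3 (3786) was at 357, 403 and 399 CPM in vehicle and 321, 367 and 298 CPM with Aβ42, with exposed replicate 2 above vehicle replicate 1. Its log2 fold change was -0.23 ± 0.08, with adjusted p-values in edgeR of 0.121 and, with the block, 0.0135. KCNQ5, a further M-type subunit, was at 9.49, 7.78 and 11.5 CPM and at 16.9, 8.31 and 12.9 CPM. Its value of 0.40 ± 0.26 rested on exposed replicate 1 (0.14 without it) and was 0.63 without exposed replicate 2.

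The silent Kv subunits form no channel alone and modify Shab-family partners. All 4 tested had fold changes above 0, from 0.04 (KCNF1) to 0.38 (KCNG2). KCNV1 was at 28.7, 24.5 and 27.4 CPM in vehicle and 40.9, 24.4 and 34.7 CPM with Aβ42, where exposed replicate 2 was level with vehicle replicate 2. KCNV1 had a log2 fold change of 0.31 ± 0.18 (adjusted p-value in edgeR 0.328), and with the block it passed (0.0394). The Shab member KCNB2 was at -0.0009 ± 0.10.

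Of the calcium- or sodium-activated channels, KCNN3 (3782) had the smallest p-value. It encodes an SK channel, which carries a calcium-dependent potassium current that follows spikes. It was at 83.0, 96.0 and 90.9 CPM in vehicle and 68.7, 80.3 and 68.6 CPM with Aβ42. All exposed libraries were lower, and both replicates numbered 2 were the highest of their group. The log2 fold change was -0.31 ± 0.08, with adjusted p-values in edgeR of 0.0734 without the block and 0.00193 with it. The other SK members were at 0.16 ± 0.18 (KCNN2) and 0.0044 ± 0.08 (KCNN1). KCNT2 (343450), a sodium-activated channel, was at 66.0, 64.4 and 67.0 CPM and at 79.0, 66.0 and 65.7 CPM, where only exposed replicate 1 stood higher (0.09 ± 0.07). KCNT1 (57582) had 8 to 26 counts per library and a value of -0.73 ± 0.37.

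The direction for KCNMA1 (3778), the pore of the BK channel, turned on the scale. It was at 46.5, 44.7 and 42.6 CPM in vehicle and 45.2, 41.9 and 40.2 CPM with Aβ42, with overlapping groups. Its fold change was -0.07 ± 0.07 from counts (adjusted p-value in edgeR 0.531) and 0.0044 on the log2(TPM + 1) scale. The count per unit of TPM, which stands for the transcript length that the deposited TPM assumed, was 0.984, 1.04 and 0.975 times the vehicle mean in vehicle and 0.881, 0.985 and 0.893 times with Aβ42, where replicates 1 and 3 lay below all vehicle libraries. This implied length differed by at least 0.1 on the log2 scale between groups for 6 of 65 members (4.14% of all genes), 2 of them longer and 4 shorter, the latter KCNG2, KCNK9, KCNMA1 and KCNMB3. For KCNQ3 it was 0.999 to 1.01 times the vehicle mean in every library, and its fold change was -0.28 on the log2(TPM + 1) scale. In all, 8 of 65 members had opposite signs on the 2 scales, each with a size of at most 0.12 on both. Over all genes 1673 of 13842 did, a like share, and their median was -0.04 on the log2(TPM + 1) scale over all genes tested.

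**Figure D4:**
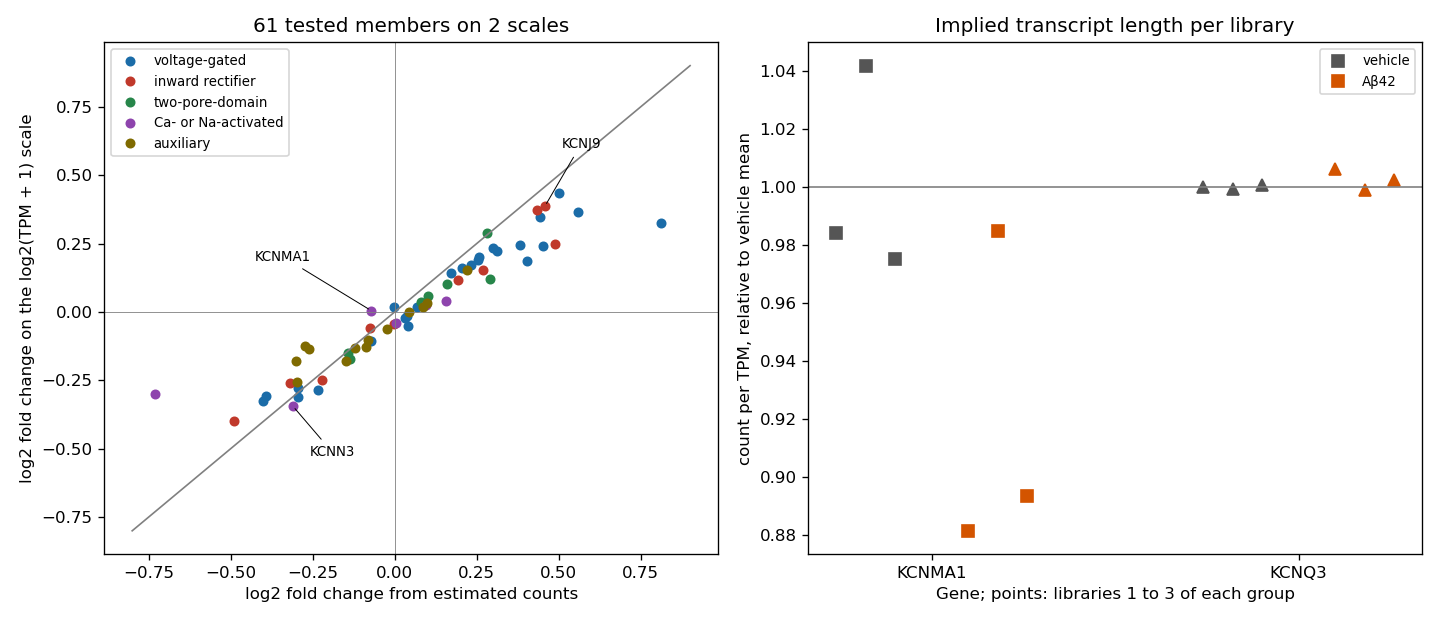
Left, log2 fold change on the log2(TPM + 1) scale against that from estimated counts for 61 of the 65 tested members, with the line of equality; right, count per TPM relative to the vehicle mean for KCNMA1 and KCNQ3 in each library. KCNMA1 has a value of -0.07 from counts and 0.0044 from TPM, and its implied length is 0.881 to 0.985 times the vehicle mean in the exposed libraries.

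No K2P member had an unadjusted p-value under 0.05. KCNK2 (3776), the mechanically gated TREK leak channel and the K2P gene with the highest TPM, was at 30.1, 35.8 and 31.3 CPM in vehicle and 26.0, 35.04 and 27.4 CPM with Aβ42. Exposed replicates 1 and 3 lay below all vehicle libraries and replicate 2 did not. Its log2 fold change was -0.13 ± 0.12 (adjusted p-value in edgeR 0.493), and without Aβ42 replicate 2 it was -0.28 and passed (0.0341). KCNK9, an acid-sensitive TASK channel, was at 8.71, 6.08 and 5.92 CPM and at 10.2, 6.00 and 8.94 CPM (0.28 ± 0.22). KCNK12 was at 0.16 ± 0.08, KCNK10 at 0.08 ± 0.08 and KCNK6, at 15 to 24 counts per library, at 0.29 ± 0.27.

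No auxiliary member had an unadjusted p-value under 0.05 either, although the groups of KCNIP2 and KCNAB2 did not overlap in CPM; in TPM both overlapped. KCNIP2 (30819), a KChIP protein that binds Shal channels and raises their surface density, was at 11.2, 8.51 and 11.3 CPM in vehicle and 12.1, 11.5 and 12.5 CPM with Aβ42 (0.22 ± 0.12, adjusted p-value in edgeR 0.298). KCNAB2 (8514), a Kvβ subunit of Shaker channels, was at 22.1 to 22.9 and 23.8 to 24.1 CPM (0.09 ± 0.07). KCNMB4 (27345), the neuronal β subunit of BK channels and the auxiliary gene with the highest TPM, was at 51.5, 49.7 and 45.6 CPM and at 44.9, 52.6 and 46.9 CPM, a log2 fold change of -0.02 ± 0.07. KCNIP1 (30820) was at 22.0, 16.3 and 16.2 CPM and at 16.9, 16.7 and 15.7 CPM. There only vehicle replicate 1 stood apart, and the fold change of -0.15 ± 0.12 was 0.01 without it. KCNE4 and KCNMB3 had values of -0.30 ± 0.30 and -0.27 ± 0.29 at 14 to 27 and 18 to 31.3 counts per library, and the others ran from -0.30 (KCNIP4, 0.15 without vehicle replicate 2) to 0.10 (KCNE1B). KCNE1 and KCNE1B are near-identical copies whose counts were not whole in every library, so their levels are uncertain.

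The 4 members with too few counts to test were KCNS3, KCNK4, KCNE2 and KCNRG. KCNE2, a subunit found in choroid plexus and stomach, had 2, 4 and 5 counts in vehicle and 9, 10 and 8 with Aβ42. In the fit with no filter its log2 fold change was 1.25 ± 0.51 (adjusted p-value in edgeR 0.185). KCNRG, a regulator that hinders Shaker channel assembly, had 8.84, 8.79 and 5.70 estimated counts in vehicle and 7.10, 1.40 and 0 with Aβ42 (-1.55 ± 0.74, adjusted p-value in edgeR 0.257). KCNS3 had 3 to 10 and KCNK4 3 to 12 counts per library, at which a change of moderate size was not detectable.

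Genes that act with these channels were taken from 3 lists. Over all genes 23.9% had an unadjusted p-value under 0.05 and 14.2% passed with the block. Of 27 tested partners of potassium channels, 1 was higher and 5 lower at that unadjusted level (22.2%). With the block 0 higher and 2 lower passed (7.41%), so this list was near or below the share of all genes. AKAP9, a scaffold that tethers a kinase to the KCNQ1 channel, was at 238.7, 273.7 and 254.2 CPM in vehicle and 187.8, 221.3 and 185.4 CPM with Aβ42 (-0.37 ± 0.08, adjusted p-value in edgeR 0.0691, with the block 0.00031). LINGO1, a membrane protein that binds BK channels, was at -0.18 ± 0.05 (0.0826 and, with the block, 0.0322). Of 17 pumps, cotransporters and their kinases, 4 were higher and 2 lower, and the same numbers passed with the block (35.3% each). The difference of this short list from all genes was not tested. SLC12A2, which brings potassium and chloride into immature neurons, was at 44.3, 49.1 and 47.0 CPM and at 37.4, 41.5 and 34.6 CPM (-0.31 ± 0.08, adjusted p-value in edgeR 0.0734, with the block 0.00676), and WNK3, a kinase that activates it, was at -0.30 ± 0.07 (0.0722 and 0.00679). Of 7 other channels that pass potassium, 1 was higher (14.3%), 0 were lower and 0 passed with the block. TMEM175, a lysosomal potassium channel, was at 0.24 ± 0.09 and HCN3 at 0.13 ± 0.07 (adjusted p-values in edgeR 0.165 and 0.265).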

How the data were processed

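RNA was measured by polyadenylated RNA sequencing with a stranded kit and PCR, per the labels' protocols. The authors deposited 1 table, holding for every gene the reads counted in each library and, beside them, TPM. Per the submitters' processing notes FastQC, STAR 2.7.11b, featureCounts 2.0.6 and GRCh38 were used, in roles not given. Only 86.9% to 87.5% of the deposited counts per library were whole, so they were treated as estimated counts and rounded; the step that divided reads, and whether counting used strand, are not given in the sources used here. The deposited TPM is scaled by the authors for length and library total.

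All genes were fitted with edgeR 4.0.16 in R 4.3.3 (filterByExpr, TMM, robust quasi-likelihood test, two-sided, Benjamini-Hochberg adjustment over 13842 genes, threshold 0.05); SE is the size of the log2 fold change over the square root of F. Fits were also run on simulated counts with a shared dispersion and no pairing of replicates. That run does not show how the fits perform on these libraries. limma 3.58.1 and DESeq2 1.42.0 were alternatives. Totals were 16465390 to 16742958 estimated counts per library. Pairs of libraries differed by 3.16 to 21.2 in chi-square per gene, so all 6 were kept; the p-values measure the spread between these libraries. Deviations from group means correlated between same-numbered libraries at 0.181, 0.388 and 0.129 over 12186 genes, all above 0.1, so the numbers were taken as pairs, from the data alone. Differently numbered libraries were not compared in this way, so the pairing remains an assumption.

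Members and lists were chosen with earlier results of these data known. Members named by rule were any past the threshold, and per class the 5 smallest p-values and the 2 highest TPM. Most are given by library, and some only by fold change, mean or range. From each partner list 2 genes are named. Further members were named after their values were seen. No paired TPM fit was made. A few members are in the counts but are not reported here by name, and the plots leave them out.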

Additional observations from a re-analysis of the deposited data

How the results depend on the processing

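With the replicate number as a block, 10 members passed the adjusted threshold in place of 0, and 24 in place of 14 had an unadjusted p-value under 0.05 (29.3% of all genes). The adjusted count was 3 with no filter on low counts (2.07% of all genes), 5 with the DESeq2 Wald test (5.81%) and 13 with limma-voom and sample quality weights (18.4%), which also gave 22 unadjusted (34.7%), and the cause was not tested. Leaving out 1 library gave 0 to 18 adjusted and 9 to 23 unadjusted members, both highest without Aβ42 replicate 2, whose sample quality weight was 0.395 against 1.001 to 1.63 in the others, and a median log2 fold change over members of 0.0205 to 0.0699. That median was -0.0021 on the log2(TPM + 1) scale and -0.0023 on the log2(TPM + 0.1) scale, against 0.0394 from counts. RLE scaling and membership at a mean TPM of 1 or 0.2 left the adjusted count at 0, the unadjusted count at 14 and the median within its spread. Of 27 members named by rule, KCNMA1 turned to 0.0044 and 0.0045 on the 2 TPM scales, KCNIP1 to 0.0135 without vehicle replicate 1 (leave-one-out range -0.2239 to 0.0135), and KCNMB4 to 0.0156 without vehicle replicate 1 and 0.025 without Aβ42 replicate 1 (range -0.0925 to 0.025). The other 24 kept their sign. At 8 to 26 counts per library for KCNT1 and 2 to 10 for KCNE2, only large differences were detectable.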
